A study of Mus musculus with 4 samples.

Results

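The 6 mouse actin genes were examined in RNA sequencing of skeletal muscle, where mitochondria had been separated from the rest of the tissue. They are the sarcomeric Acta1 and Actc1, the smooth muscle Acta2 and Actg2, and the cytoskeletal Actb and Actg1. Members were found by gene symbol in a table of 16472 genes. All 6 were present, and 5 of them reached the mean of at least 20 normalized counts that was needed for a test. The question behind the series was which RNAs lie in mitochondria. It held 4 libraries, all of total RNA from skeletal muscle of WT mice, in 2 groups of 2. One group was isolated mitochondria. The other carries the treatment label tissue minus mitochondria but has total in its sample titles, and a legend of the study describes it as lysate of total muscle. It is called remaining tissue here, and whether the comparison is with whole or depleted tissue is not settled. Strain, age, sex, the muscle taken and whether animals were pooled were not given in the sources used here. No label ties a library to an animal, so p-values measure only the spread between these libraries, which may be technical.

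Actin is the protein of thin filaments. In the myofibre, alpha-actin filaments slide along myosin in the sarcomere. Acta1 is the alpha-actin of adult skeletal muscle, and Actc1 that of the heart, which is also made in developing muscle. Acta2 and Actg2 belong to smooth muscle of vessels and viscera, and Actb and Actg1 build the cortex, protrusions and stress fibres of nearly every cell. The proteins are almost identical, while the transcripts differ more, which allows each to be counted. All 6 are encoded by the nuclear genome. Their transcripts in isolated mitochondria are part of the nuclear-encoded RNA of that fraction.

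The coding sequences of the 6 genes were compared to see how far short reads can separate them. Coding length was 1128 nt for Actb and Actg1, 1131 nt for Actg2 and 1134 nt for the others. Actb and Actg1 were the most alike, at 88.7% identity, with 128 of 1128 positions different. Acta1 was 86.2% identical to Actc1, 85.4% to Acta2, 84.9% to Actg2, 84.8% to Actb and 83.6% to Actg1. The first 30 coding bases are shown from the start codon (5′ to 3′, GENCODE M21 transcripts on GRCm38), since they differ between the muscle and the cytoskeletal genes. Capitals mark bases that differ from the aligned base of Acta1 or have no partner in it.
Acta1: atgtgcgacgaagacgagaccaccgctctt
Actc1: atgtgTgacgaCgaGgagaccaccgctTtG
Acta2: atgtgTgaAgaGgaAgaCaGcacAgcCctG
Actg2: atgtgTgaagaAgagaccaccgcCcttgtg
Actb: atggaTgacgaTaTcGcTgcGctGgtCGTC
Actg1: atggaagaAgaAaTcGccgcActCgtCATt
Capitals numbered 3 in Actg2, 5 in Actc1, 9 in Acta2, 9 in Actg1 and 11 in Actb. Actb, Actg1 and Actg2 are shorter than Acta1, and the alignment left gaps there, so that later bases are set against a shifted base of Acta1.

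All 6 genes lie on the minus strand, each on a chromosome of its own (GRCm38). Acta1 (chromosome 8, 123891769 to 123894751) has 7 exons and a longest transcript of 1446 nt, and Actc1 (chromosome 2, 114047282 to 114053548) has 7 exons and 1473 nt. Acta2 (chromosome 19, 34241090 to 34255590) has 9 exons and 2035 nt, and Actg2 (chromosome 6, 83512905 to 83536265) has 9 exons and 1333 nt. Actb (chromosome 5, 142903115 to 142906754) has 6 exons and 1920 nt, and Actg1 (chromosome 11, 120345690 to 120348542) has 6 exons and 1952 nt. Values are given over exons, since reads had been counted there.

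Reads of 75 nt that occur in several genes were left out by the authors, so each longest transcript was searched for 75 nt windows found in any other gene. Among the 6 actins, Acta1 and Actb shared 3 windows with each other, and no others were shared. Actc1, Acta2 and Actg2 had 0 shared windows, Acta1 had 6 of 1372 (0.437%) and Actb 48 of 1846 (2.60%). Actg1 stood apart with 1023 of 1878 (54.5%), shared with 10 other genes, most of them processed pseudogenes. Its count therefore stands for less than the whole transcript. The exons of Actg1 also overlap Gm23419 and Mir6935.

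In heart, the study had also measured beta-actin by RT-qPCR, in the mitochondrial fraction and in complete lysate. The 2 primers, of 25 bases each, were aligned to the 6 longest transcripts to show which members that assay reads. Capitals mark the bases that differ from the closest other actin, Acta2 for the forward primer and Acta1 for the reverse primer.
Forward: catgaagatcctgacCgagcgtggc
Reverse: tGctcgaagtcTagAgcAacatagc
Both matched Actb with 0 mismatches and enclosed 108 nt of it. The forward primer differed from Acta2 at 1 base, from Actg1 at 3, from Acta1 and from Actc1 at 4 and from Actg2 at 6, and also matched the pseudogenes Gm4750 and Gm8464 exactly. The reverse primer matched Actb alone exactly, and differed from Acta1 and from Actg1 at 4 bases, from Acta2 and from Actg2 at 5 and from Actc1 at 8.

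Depth differed between the groups. Isolated mitochondria held 42750209 and 35305412 reads in replicates 1 and 2, and remaining tissue an estimated 15702414 and 15300274. The estimate assumes the same size factor for both libraries of remaining tissue. Mitochondrially encoded genes took 20.5% to 22.3% of counts in remaining tissue and 94.1% to 95.3% in isolated mitochondria. Nuclear genes, without copies of mitochondrial genes, thus had 100924 and 181152 reads in isolated mitochondria against an estimated 11988422 and 11967459 in remaining tissue. The deposited values are normalized counts, gene counts divided by a size factor and rounded. In isolated mitochondria 1 read was worth 9.05 and 5.06 normalized counts in replicates 1 and 2, and in remaining tissue 0.142. With 2 libraries against 2, an exact two-sided permutation test cannot give a p below 0.333, so shares and ratios are given without one.

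Acta1 was the dominant actin in every library. Its normalized counts were 31476 and 33001 in remaining tissue and 7773 and 9531 in isolated mitochondria, the latter from 859 and 1884 reads. Both libraries of isolated mitochondria were below both of remaining tissue. The means were 32238 ± 1078 and 8652 ± 1243 (SD, n = 2 each), which is 3.74-fold lower in isolated mitochondria, with a log2 difference of -1.90 (SE 0.20, adjusted p 0.0162, limma with Benjamini-Hochberg adjustment over 6916 genes). Acta1 was the 1 actin of 5 tested that was called lower at an adjusted p under 0.05, against 9.30% of all tested genes.

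As a share of nuclear reads, Acta1 held 1.85% (95% Wilson interval 1.84 to 1.86) and 1.94% (1.94 to 1.95) in remaining tissue and 0.851% (0.796 to 0.910) and 1.04% (0.994 to 1.09) in isolated mitochondria. Intervals cover counting error only, because reads were not tied to single molecules. By share Acta1 ranked 5 among nuclear genes in both libraries of remaining tissue, and 7 and 6 in isolated mitochondria. Per kilobase of transcript it ranked 5 and 9 in remaining tissue, but 67 and 52 in isolated mitochondria. The median log2 difference of all tested genes was -0.44, and relative to it Acta1 was 1.46 lower on the log2 scale (-1.46). A larger fall than that of Acta1 was seen in 867 of the 6916 genes (12.5%).

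Actb, whose product forms the cell cortex, had higher values in isolated mitochondria under the deposited scaling. Its normalized counts were 524 and 604 in remaining tissue and 1104 and 2003 in isolated mitochondria, where they came from 122 and 396 reads. Both libraries of isolated mitochondria were above both of remaining tissue, and the distance between them exceeded that from the lower of them to remaining tissue. The means were 564 ± 56.6 and 1553.5 ± 635.7 (SD, n = 2 each). The log2 difference was 1.40 (SE 0.34), with an unadjusted limma p of 0.0141 and an adjusted p of 0.0663 over all genes, so that Actb did not pass the threshold. Of all tested genes 36.9% were above 0 and 13.5% were above Actb.

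Whether Actb was called rested on the test, the scaling and the model. edgeR's quasi-likelihood test on reads, which are estimates in remaining tissue, gave 1.47 (adjusted p 0.0239) and called 13.6% of genes higher. DESeq2, with size factors of its own, gave 1.75 (adjusted p 2.64e-05) and called 20.3% higher. Limma called Actb when the upper quartile (1.68, adjusted p 0.041) or the total of nuclear genes (2.29, adjusted p 0.0242) set the scale. With the sum over all genes as the scale, mitochondrially encoded ones included, Actb was at -5.49 beside a median of all genes of -6.90. As a share of nuclear reads it was 0.0308% and 0.0356% in remaining tissue and 0.121% and 0.219% in isolated mitochondria. Its rank among nuclear genes was 286 and 264 in remaining tissue and 115 and 44 in isolated mitochondria.

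Actg1, the second cytoskeletal actin, had 78 and 115 normalized counts in remaining tissue and 127 and 258 in isolated mitochondria, from 14 and 51 reads. The groups did not overlap, but isolated mitochondria replicate 1 was close to remaining tissue replicate 2. The means were 96.5 ± 26.2 and 192.5 ± 92.6 (SD, n = 2 each), and the log2 difference of 0.93 (SE 0.45, adjusted p 0.215, limma) did not pass the threshold. It passed in DESeq2 (1.31, adjusted p 0.0332). No actin was called higher by limma, where 7.32% of all tested genes were. At an unadjusted limma p under 0.05 stood 2 of the 5, Acta1 and Actb, beside 37.0% of all genes.

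Actc1, the cardiac alpha-actin, had 99 and 226 normalized counts in remaining tissue and 154 and 521 in isolated mitochondria, the latter from 17 and 103 reads. The groups overlapped, and replicates differed by more than the factor between the group means in each group. The means were 162.5 ± 89.8 and 337.5 ± 259.5 (SD, n = 2 each), with a log2 difference of 0.92 (SE 0.76, adjusted p 0.420, limma). This SE was the largest among the 5 tested actins, and the log2 difference was 1.79 without isolated mitochondria replicate 1, 0.04 without replicate 2, 0.33 without remaining tissue replicate 1 and 1.51 without replicate 2.

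The smooth muscle actins were low. Acta2, the vascular member, had 53 and 68 normalized counts in remaining tissue and 36 and 76 in isolated mitochondria, from 4 and 15 reads. The groups overlapped, with a log2 difference of -0.19 (SE 0.46, adjusted p 0.778, limma), and its sign was positive under 5 of the other scalings and count tests. Actg2, the enteric member, had 16 and 2 normalized counts in remaining tissue and 18 and 0 in isolated mitochondria, from 2 and 0 reads. It was at or under the 3 reads set as a floor, which are worth 27.1 and 15.2 normalized counts in these libraries, and neither a fold nor a test is given.

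**Figure D1:**
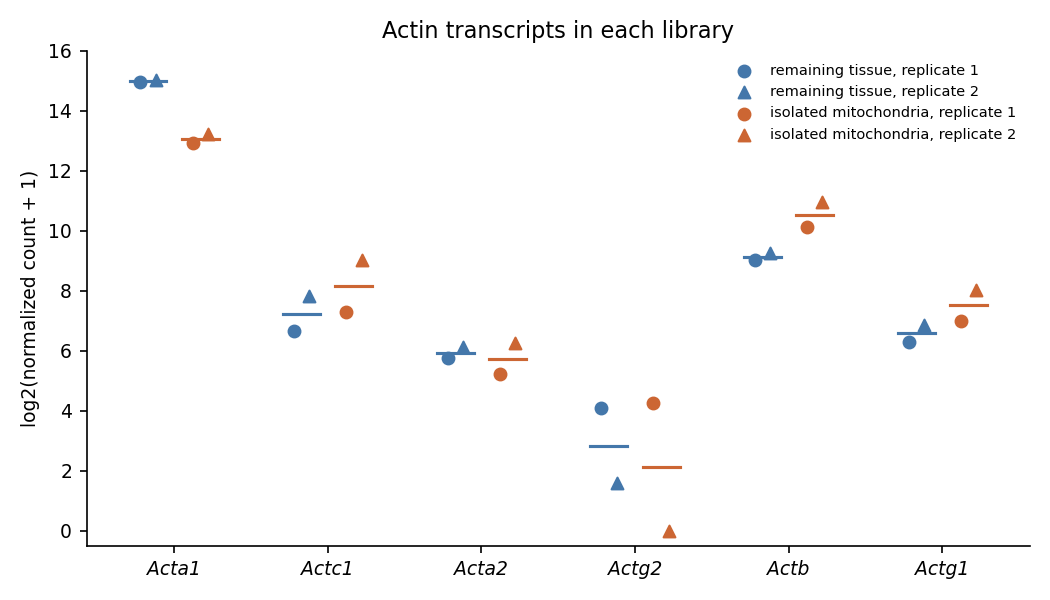
Normalized counts of the 6 actins as log2(normalized count + 1), with 1 point per library (circle replicate 1, triangle replicate 2) and a line at each group's mean of the log2 values. Acta1 is lower in both libraries of isolated mitochondria, Actb and Actg1 are above remaining tissue in both under the deposited scaling (all 3 are lower where the sum over all genes sets the scale), and the groups of Actc1, Acta2 and Actg2 overlap.

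Across the 5 tested members, groups did not overlap for Actb and Actg1 among those higher and for Acta1 among those lower. Over all tested genes 25.5% were higher without overlap and 43.7% were lower without overlap. These directions hold relative to the deposited scaling. With the total of all genes as the scale all 5 actins were lower (-8.80 for Acta1 to -5.49 for Actb), as most genes were.

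To compare levels between genes, normalized counts were divided by the length of the longest transcript. In remaining tissue the order per kilobase was Acta1 at 22295 ± 745, Actb at 293.75 ± 29.5, Actc1 at 110.3 ± 61.0, Actg1 at 49.4 ± 13.4, Acta2 at 29.7 ± 5.21 and Actg2 at 6.75 ± 7.43 normalized counts (SD, n = 2 each). The ranges of neighbours in this order did not overlap, but the distance between Actc1 and Actg1 was no larger than the SD of Actc1. In isolated mitochondria the order was the same, with Acta1 at 5983 ± 860, Actb at 809 ± 331, Actc1 at 229 ± 176, Actg1 at 98.6 ± 47.5, Acta2 at 27.5 ± 13.9 and Actg2 at 6.75 ± 9.55. There the ranges of Actc1 and Actg1 overlapped, and those of the other neighbours did not. When Actg1 was divided by its unshared windows only, it reached 112.9 ± 30.6 per 1000 windows in remaining tissue beside 116 ± 64.2 for Actc1, with overlapping ranges.

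The composition of the actin family does not depend on how libraries are scaled to each other. Acta1 made up 97.6% (95% Wilson interval 97.5 to 97.7) and 97.0% (96.9 to 97.1) of actin counts in remaining tissue and 84.4% (82.0 to 86.5) and 76.9% (75.2 to 78.6) in isolated mitochondria. Actb took 1.63% and 1.78% in remaining tissue and 12.0% and 16.2% in isolated mitochondria. Both shares were apart between the groups by more than the distance between replicates and by more than counting error.

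Grouped by class, the cytoskeletal actins held 1.87% and 2.11% of actin counts in remaining tissue and 13.4% and 18.2% in isolated mitochondria. The smooth muscle actins held 0.214% and 0.206% against 0.586% and 0.613%. The sarcomeric pair held 97.9% and 97.7% against 86.1% and 81.1%. Within that pair Actc1 went from 0.307% and 0.664% to 1.67% and 4.21%, so that the 2 sarcomeric members did not move as 1 class. All 6 genes together were 1.896% and 2.004% of nuclear reads in remaining tissue and 1.01% and 1.35% in isolated mitochondria.

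**Figure D2:**
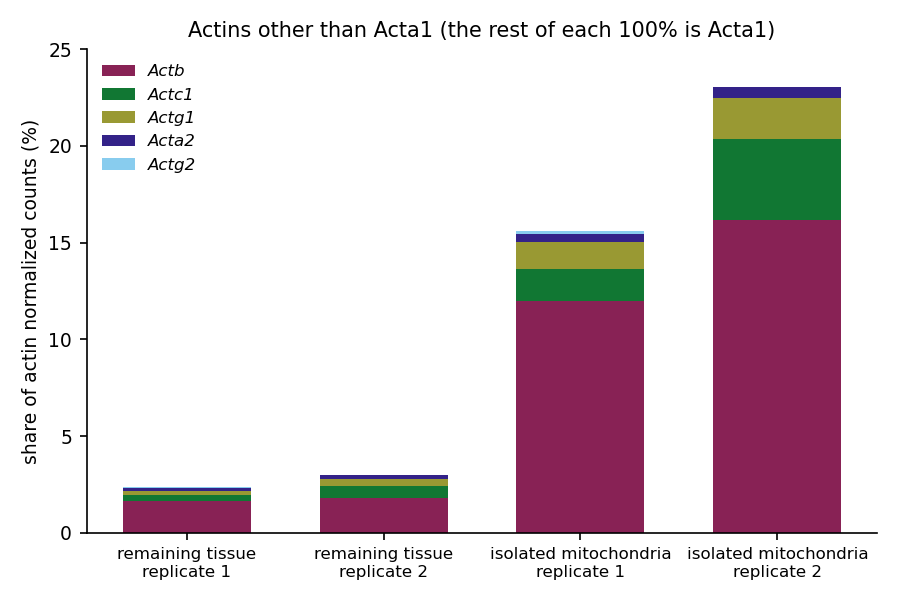
Share of actin normalized counts (%) held by the actins other than Acta1 in each of the 4 libraries, stacked by gene, without error bars. The stack reaches 2.39% and 2.98% in remaining tissue and 15.6% and 23.1% in isolated mitochondria, most of it Actb.

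Each member was then tested relative to Acta1 in the same library, as the contrast between the myofibre actin and the others. Per 1000 counts of Acta1, Actb had 16.6 and 18.3 counts in remaining tissue and 142 and 210 in isolated mitochondria. Actg1 had 2.48 and 3.48 against 16.3 and 27.1. Actc1 had 3.15 and 6.85 against 19.8 and 54.7, and Acta2 had 1.68 and 2.06 against 4.63 and 7.97. For all 4 the ratio was higher in isolated mitochondria without overlap, as it was for 73.9% of all tested genes, while 4.11% were lower without overlap. Actg2 had 0.508 and 0.0606 against 2.32 and 0 and was not tested.

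In limma on the log2 ratio to Acta1, Actb was 3.31 higher in isolated mitochondria (9.89-fold, SE 0.26, adjusted p 0.00308) and Actg1 2.83 higher (7.12-fold, SE 0.36, adjusted p 0.00689). Actc1 was 2.82 higher (7.07-fold, SE 0.65, adjusted p 0.0247) and Acta2 1.71 higher (3.27-fold, SE 0.38, adjusted p 0.0225). Thus 4 of 4 were called higher relative to Acta1 and 0 lower, where 50.4% of all tested genes were called higher and 0.665% lower. Every such ratio carries the error of Acta1, and the median of all genes was 1.46. The value of Actc1 was 3.55 without isolated mitochondria replicate 1 and 2.09 without replicate 2. Acta2 was near the middle of the transcriptome on this scale, and its value was 1.57 without remaining tissue replicate 1 and 1.85 without replicate 2. Acta2 did not keep its call in every fit with 1 library left out. In such a fit 1 group adds no spread, so its p-values are not given.

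**Figure D3:**
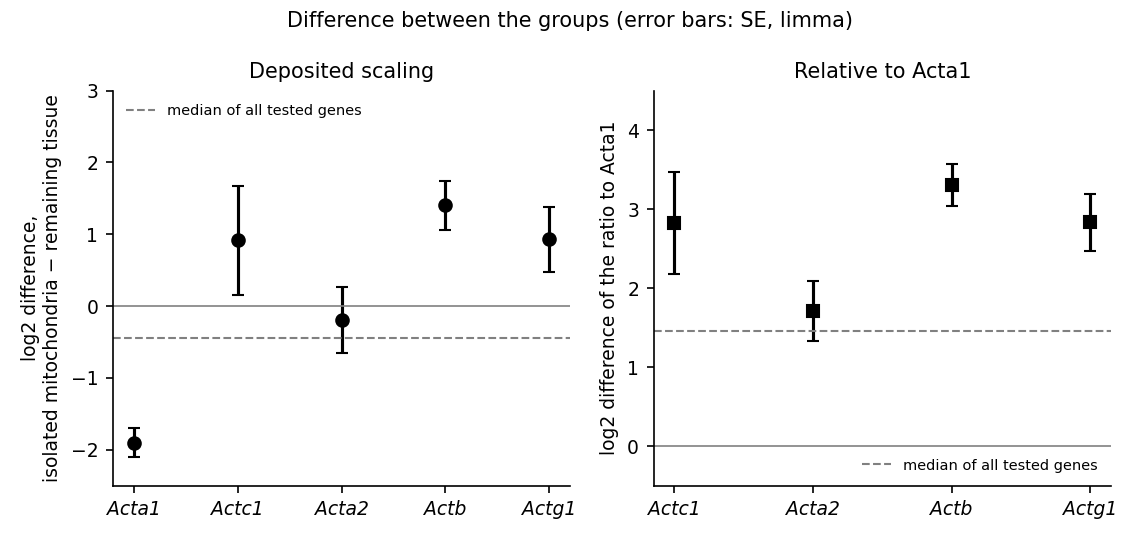
Log2 difference between isolated mitochondria and remaining tissue for the 5 tested actins under the deposited scaling (left), and of the ratio to Acta1 for the other 4 (right), with SE from limma as bars and the median of all tested genes as a dashed line at -0.44 and 1.46. Acta1 lies below the median on the left (its value is -1.90), and Actb, Actg1 and Actc1 lie above it in both panels, Actb at 3.31 on the right.

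Ratios among the other members were compared as well. The ratio of Actb to Actg1 counts was 6.72 and 5.25 in remaining tissue and 8.69 and 7.76 in isolated mitochondria. Actc1 to Actg1 was 1.27 and 1.97 against 1.21 and 2.02, overlapping. Actb to Acta2 was 9.89 and 8.88 against 30.7 and 26.4, without overlap. Acta1 to Actb went from 60.1 and 54.6 to 7.04 and 4.76.

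Because so much of Actg1 is shared, its copies were examined. Annotated transcripts with at least 300 nt aligned to an actin at 90% identity or more came from 14 further genes, 13 of them pseudogenes. Actg1 was the closest actin for 12 and Actb for 2, and 10 of the Actg1-like genes were in the table. The copies together held 138 and 191 normalized counts in remaining tissue and 235 and 283 in isolated mitochondria, which exceeded Actg1 itself in every library.

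Gm12715 (chromosome 4), aligned over 1128 nt at 99.6% identity, had 43 and 69 normalized counts in remaining tissue and 145 and 101 in isolated mitochondria (log2 1.14, adjusted p 0.109, limma). Gm16385, at 97.6% identity, had 10 and 16 against 54 and 51 (log2 1.97, adjusted p 0.0508). Gm8399, at 98.6%, had 29 and 36 against 18 and 101, and Gm47692, at 93.6%, had 38 and 46 against 9 and 0. The copies thus did not share 1 direction. How many of their reads came from Actg1 was not tested. With all 10 copies added, Actg1 stood at 216 and 306 against 362 and 541, a log2 difference of 0.78 (adjusted p 0.160), and 2.69 relative to Acta1 (adjusted p 0.00408, limma). This sum was chosen after the values were seen.

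**Figure D4:**
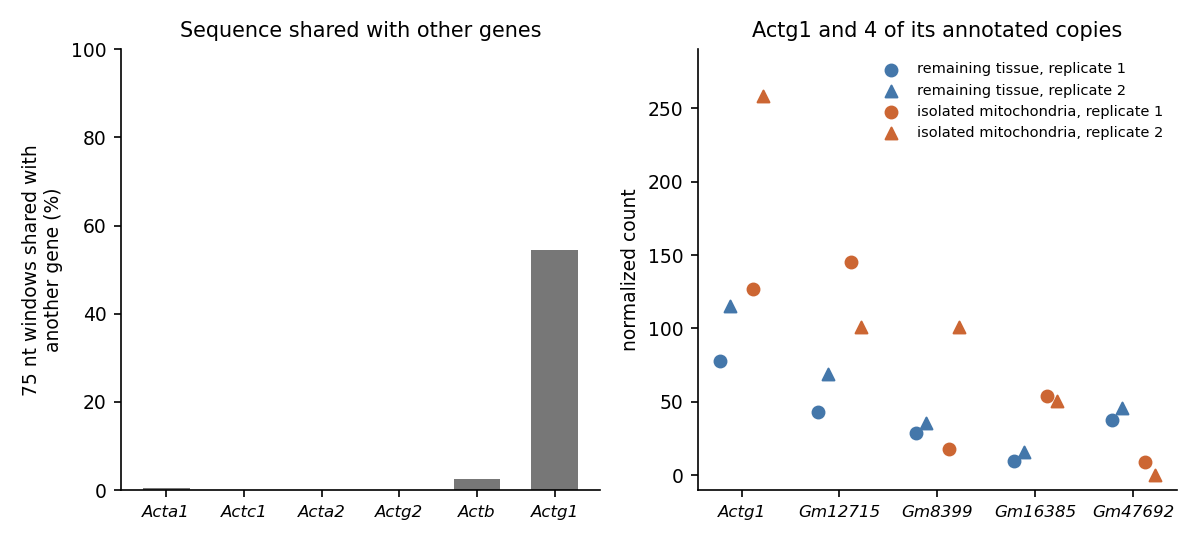
Left, the share of 75 nt windows of each actin's longest transcript that occur in another gene (%), which is 54.5% for Actg1 and 2.60% or less for the others. Right, normalized counts of Actg1 and of 4 Actg1-like genes in each library (circle replicate 1, triangle replicate 2). Gm12715 and Gm16385 are higher in both libraries of isolated mitochondria under the deposited scaling. Gm8399 overlaps, and Gm47692 is lower in isolated mitochondria, where it has 1 and 0 reads.

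For each tested actin the nuclear genes with the nearest profiles were found, by Euclidean distance between log2 values centred on their own mean over the 4 libraries. Acta1 was nearest to Fry (distance 0.0235), Mast4 (0.0900) and Mical3 (0.0905). Actb was nearest to Plac9a (0.0383), Cgnl1 (0.0547) and Gga2 (0.0987), and Actg1 to Stx6 (0.168), Peli2 (0.197) and Slfn5 (0.203). Genes near Acta2 included Zfp664 (0.139) and Wdr1 (0.144), and Actc1 was nearest to Serpinh1 (0.414), Gm23287 (0.439) and Dynll1 (0.514). Many of these genes rest on few reads in isolated mitochondria, such as 7 and 15 for Fry and 4 and 13 for Plac9a, so that with 4 libraries a near profile is a weak description.

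The proteins that share the thin filament with Acta1 were compared with it. Of 10 partners, all tested, 5 were called lower and 0 higher, beside 9.30% and 7.32% of all tested genes. The median log2 difference of the partners was -1.77, beside -1.90 for Acta1 and -0.44 for all genes. Nebulin (Neb), which spans the filament, went from 45852 and 43724 normalized counts to 3212 and 3319 (log2 -3.78, SE 0.17, adjusted p 0.00317, limma). Tropomyosin 2 (Tpm2), which lies along the filament and gates myosin binding, went from 7988 and 8539 to 2027 and 2651 (log2 -1.83, SE 0.21, adjusted p 0.0185). Relative to Acta1, Tpm2 was at 0.07 (adjusted p 0.777) and Neb at -1.87 (adjusted p 0.00701). Neb therefore differed between the groups by more than the filament's actin did.

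The capping genes, which close filament ends, numbered 2 lower and 0 higher of 8 tested (median -1.04), beside 9.30% and 7.32% of all tested genes. Both that fell belong to the pointed end in striated muscle, leiomodin 3 (Lmod3, log2 -1.91, adjusted p 0.0384) and tropomodulin 1 (Tmod1, log2 -1.69, adjusted p 0.0266, limma). Lmod3 was at -0.01 relative to Acta1.

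Genes of actin monomer binding and filament turnover were mixed. Of 13 tested, 6 were called higher and 3 lower, with a median of 1.38, beside 7.32% and 9.30% of all tested genes. Gelsolin (Gsn), which severs and caps filaments, went from 1385 and 1422 normalized counts to 11356 and 14945 (log2 3.21, SE 0.21, adjusted p 0.00780, limma). Thymosin beta 10 (Tmsb10), which holds actin monomers, went from 14 and 11 to 118 and 152 (log2 3.33, adjusted p 0.0144). In contrast Cap2, the cyclase-associated protein of striated muscle, fell (log2 -2.97, adjusted p 0.0237), as did twinfilin 2 (Twf2, log2 -1.29, adjusted p 0.0390).

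Among 17 tested nucleation genes 3 were higher and 1 lower (median 0.56), where limma called 7.32% and 9.30% of all tested genes. The Arp2/3 complex subunits Arpc1b (log2 2.57, adjusted p 0.0382) and Arpc5 (1.93, adjusted p 0.0449, limma) rose, and the formin Fhod3, which is known from striated muscle, fell (-2.42, adjusted p 0.0409). Of 12 crosslinking and anchoring genes 2 were lower and 0 higher by limma (median 0.08), among them radixin (Rdx, -1.25, adjusted p 0.0496), and 5 had an unadjusted p under 0.05. By edgeR the latter list held 1 higher and 2 lower, and by DESeq2 4 higher and 1 lower. Of all genes, edgeR called 13.6% higher and 17.6% lower, and DESeq2 20.3% higher and 12.7% lower. Of 9 tested folding and modification genes 0 were called by limma, with a median of -0.49, while 3 had an unadjusted p under 0.05, and edgeR called 1 lower and DESeq2 0. Over all these actin regulators 9 of 59 tested were higher and 8 lower by limma, with a median of -0.09, beside 7.32% and 9.30% of all tested genes.

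**Figure D5:**
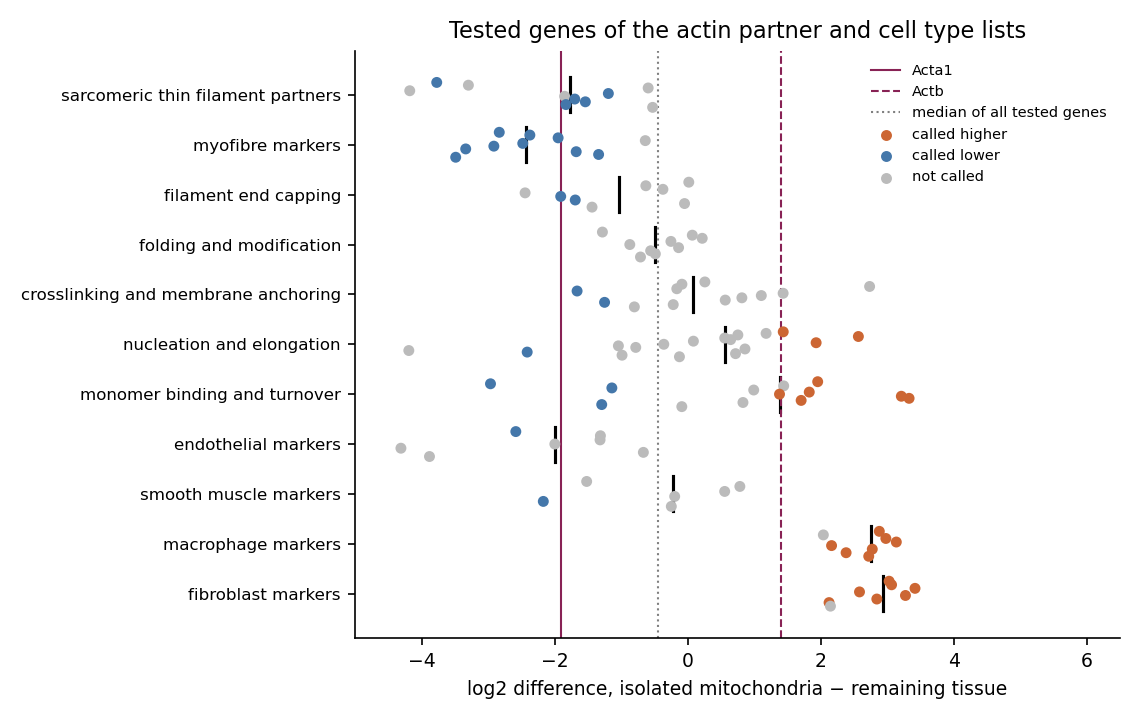
Log2 difference between isolated mitochondria and remaining tissue (deposited scaling) of every tested gene in 5 actin regulator lists, the thin filament partners and 5 marker lists, coloured by the limma call, with a black line at each list's median and vertical lines at Acta1 (-1.90), Actb (1.40) and the median of all genes (-0.44). The median of the thin filament partners (-1.77) lies near Acta1, while single partners range from -4.18 to -0.53. Fibroblast and macrophage markers (medians 2.94 and 2.75) lie above Actb. With the sum over all genes as the scale that median is -6.90.

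Actin genes are known targets of the serum response factor (Srf), which binds CArG boxes together with myocardin-related coactivators. RefSeq promoters (GRCm38.p6, 250 bases before to 50 after the start) were found for Acta1, Actc1, Acta2 and Actg1. A CArG box, searched on both strands, was found in 3 of these 4 and in 535 of 32851 promoters (1.63%). The 30 bases around each box are shown on the strand of the gene, with the box in capitals.
Acta1 (chr8:123894829-123894858, minus strand): tgcccgacacCCAAATATGGcttgggaagg
Actc1 (chr2:114052903-114052932, minus strand): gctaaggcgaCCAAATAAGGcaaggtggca
Actg1 (chr11:120348566-120348595, minus strand): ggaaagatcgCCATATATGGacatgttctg
The box began at -73 in Acta1, -47 in Actc1 and -90 in Actg1 relative to the start. In the window of Acta2 there was no match, which says only that these letters are not in it. Srf itself went from 115 and 117 to 9 and 25 normalized counts, the latter 1 and 5 reads (log2 -2.86, adjusted p 0.0427, limma). It was the 1 of 3 tested genes of its list that was called, and 9.30% of all tested genes were called lower.

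Markers of the cells that the muscle holds were set beside the actins. Myofibre markers were called lower in 9 of 10, with a median of -2.43, beside 9.30% of all tested genes. The summed share of these markers in nuclear reads was 14.7% to 15.2% in remaining tissue and 3.64% to 4.11% in isolated mitochondria. Muscle creatine kinase (Ckm) fell by 1.95 on the log2 scale (SE 0.17, adjusted p 0.0122, limma), close to Acta1, with a difference from Acta1 of -0.05 (adjusted p 0.890). The myosin heavy chain Myh4 fell by 3.34 (adjusted p 0.00840) and the calcium release channel Ryr1 fell by 3.49 (adjusted p 0.00840). None of these markers, which define the labelled tissue, was at 0 in both libraries of a group.

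Fibroblast markers were called higher in 7 of 8 (median 2.94) and macrophage markers in 7 of 8 tested (median 2.75). Neither Actb nor Actg1 was called by limma under the deposited scaling. Limma called 7.32% of all tested genes higher. The fibroblast sum was 0.0966% to 0.103% of nuclear reads in remaining tissue and 1.16% to 2.11% in isolated mitochondria, and the macrophage sum 0.00911% to 0.0111% and 0.108% to 0.138%. No marker of either list was at 0 in both libraries of a group. The collagen Col3a1 (log2 3.42, adjusted p 0.0197) and dermatopontin (Dpt, 3.28, adjusted p 0.0149) led the first list, and the complement genes C1qc (3.14, adjusted p 0.0264) and C1qb (2.98, adjusted p 0.0206, limma) the second. In bulk RNA, fewer cells of a type and less RNA per cell cannot be told apart. The part of these cells in the values of Actb and Actg1 was not tested.

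Endothelial markers did not share that direction. Of 7 tested, 0 were higher and 1 was lower, Cdh5 (log2 -2.59, adjusted p 0.0249, limma), and all 7 had values below 0. Limma called 9.30% of all tested genes lower. An unadjusted p under 0.05 was reached by 4 (37.0% of all genes). edgeR called 5 of the 7 lower (17.6% of all genes) and DESeq2 4 (12.7%). Pecam1, which defines these cells, had 84 and 97 normalized counts in remaining tissue and 0 and 20 in isolated mitochondria, and Emcn and Cldn5 were at 0 in both libraries of isolated mitochondria.

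Smooth muscle markers are the counterpart of Acta2 and Actg2. Of 6 tested, 1 was lower and 0 higher (median -0.22), beside 9.30% and 7.32% of all tested genes. The sum of the markers was 0.0843% to 0.0962% of nuclear reads in remaining tissue and 0.0662% to 0.0785% in isolated mitochondria. Most of that sum in remaining tissue was Synpo2, the marker that fell (1194 and 1060 normalized counts against 235 and 263, log2 -2.17, adjusted p 0.0114, limma). Without Synpo2 the direction of the sum turned, to 0.0219% to 0.0260% in remaining tissue and 0.0375% to 0.0527% in isolated mitochondria, a sum chosen after the values were seen. Myosin heavy chain 11 (Myh11) had 155 and 111 normalized counts in remaining tissue and 100 and 20 in isolated mitochondria, and transgelin (Tagln) 30 and 29 against 109 and 5. Calponin 1 (Cnn1) had 6 and 2 and was at 0 in both libraries of isolated mitochondria, as was Myocd. Acta2 was higher in replicate 2 of isolated mitochondria, while Tagln and Myh11 were higher in replicate 1. Markers of pericytes, which can also carry Acta2, were 1 higher (Cspg4, log2 1.92, adjusted p 0.0265) and 1 lower (Abcc9, -2.49, adjusted p 0.00961, limma) of 5 tested.

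Actc1 was set beside heart and developing muscle, where it is known to be made. The cardiac myosin heavy chain Myh6 had 196 and 334 normalized counts in remaining tissue and 525 and 1543 in isolated mitochondria (log2 1.81, adjusted p 0.122, limma). It was higher in replicate 2 of each group, as was each of the 5 tested actins and not Actc1 alone. Cardiac troponin T (Tnnt2) went from 6 and 4 to 118 and 243 (log2 4.85, adjusted p 0.0157), from 13 and 48 reads. Actn2, which skeletal muscle also makes, fell by 1.89 (adjusted p 0.0197). The heart markers tested numbered 4, with 1 higher and 1 lower by limma and 3 higher and 1 lower by edgeR and by DESeq2. Of all genes limma called 7.32% higher, edgeR 13.6% and DESeq2 20.3%, and 9.30%, 17.6% and 12.7% lower. The heart markers summed to 0.103% to 0.107% of nuclear reads in remaining tissue, most of it Actn2, and to 0.127% to 0.251% in isolated mitochondria. Without Actn2, left out after the values were seen, the sums were 0.0119% to 0.01997% and 0.0744% to 0.213%. Nppa, Tnni3 and Myl7 were not among the 16472 genes, so that 4 of the 7 listed heart markers had values.

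The list of satellite cell and developing muscle markers held 7 genes, of which 2 were tested. Both, the myosins Myh3 and Myh8, were called lower by limma, as were 9.30% of all tested genes. Of those not tested, Pax7 had 5 and 5 normalized counts in remaining tissue and 36 and 25 in isolated mitochondria. Myod1, Myf5 and Myog were lower in isolated mitochondria without overlap, and Ncam1 overlapped. The embryonic myosin Myh3 went from 127 and 154 to 27 and 30 normalized counts (log2 -2.26, adjusted p 0.0189) and the perinatal myosin Myh8 from 5346 and 5814 to 597 and 663 (log2 -3.15, adjusted p 0.00495, limma). Relative to Acta1, Actc1 was at 2.82, Myh6 at 3.72 (adjusted p 0.00818), Tnnt2 at 6.75 (adjusted p 0.00249) and Myh3 at -0.35 (adjusted p 0.316). The part of other muscle or heart RNA in the value of Actc1 was not tested.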

How the data were processed

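Total RNA of isolated mitochondria and of remaining tissue was sequenced from a small input with a stranded kit, and fragmentation time was adapted to mitochondrial RNA, which coincides with the groups. Treatment with digitonin and RNase A before extraction is described for heart; whether muscle was treated was not given in the sources used here. Per the submitters' notes, reads were trimmed (Trimmomatic 0.39), aligned to mm10 (STAR 2.7.10a), counted per gene without ambiguous reads (featureCounts 2.0.2) and normalized (DESeq2 1.30.1). The strand setting of counting was not given in the sources used here. The deposited values are a signal made by the authors from gene counts divided by size factors and rounded, called normalized counts. In isolated mitochondria, 100% of 10508 and 11660 low values (under 2000) were whole reads within 0.5 normalized counts. Reads in remaining tissue were estimated with 1 size factor assumed for both libraries. The intervals of that group and the edgeR and DESeq2 tests rest on this assumption too. Rounding in remaining tissue hides up to 7.05 reads.

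Groups came from the labels. Genes with a mean of at least 20 were tested with limma 3.58.1 (lmFit, eBayes with trend, R 4.3.3) on log2(normalized count + 1), two-sided, with Benjamini-Hochberg adjustment over 6916 genes at 0.05, and again after subtraction of the log2 value of Acta1 in the same library. The pseudocount of 1 shrinks changes of low genes, but it is less than 1 read in isolated mitochondria (9.05 and 5.06 normalized counts). A 0 in 1 library can therefore make a log2 difference large, as in Pecam1 (0 and 20, log2 -4.32, SE 1.60). edgeR 4.0.16 and DESeq2 1.42.0 on recovered or estimated reads, other scalings, filters and pseudocounts, a replicate block and omission of each library were alternatives. The floor was 3 reads. Median reads per tested nuclear gene were 345 in both libraries of remaining tissue and 5 and 10 in isolated mitochondria. GENCODE M21 held 16457 of the 16472 identifiers. Scripts were tested on simulated data. All 6 actins are named whatever their values, as are fixed defining markers and at most the 2 largest called changes in each direction of a list. Myocd, Emcn, Cldn5, Tnni3, Myl7, Pax7, Myod1, Myf5, Myog, Ncam1 and the copies are named for their place in a list. Values of 2 genes that this rule names are not reported here. Members and lists were chosen with earlier results of these data known.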

Additional observations from a re-analysis of the deposited data

How the results depend on the processing

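Acta1 was lower and called in 18 of 18 alternatives (log2 -8.80 to -1.01), and in the ratio to Acta1 the calls of Actb, Actg1 and Actc1 held in 11 of 11 and that of Acta2 in 9 of 11. Actb was called higher in 8 of 18 and lower in 1. No actin was called higher in the main test, against 1 with a replicate block (Actb, adjusted p 0.00124), the upper quartile, the total of nuclear genes or edgeR, 2 with edgeR and TMM or DESeq2, and 0 to 1 with 1 library left out (Actb 0.97 to 1.83, called without isolated mitochondria replicate 1 or 2). Actins called lower were 5 instead of 1 with the sum over all genes as the scale, where Actb was -5.49, Actg1 -5.86 and Actc1 -5.90 (median of all genes -6.90). Acta2 changed sign without isolated mitochondria replicate 1 (-0.72 to 0.34 over the libraries left out) and with the upper quartile (0.078), the total of nuclear genes (0.69), edgeR (0.014), edgeR with TMM (0.25) and DESeq2 (0.26). The replicate numbers share no stated animal, and deviations of same-numbered libraries correlated at 0.14 over 6916 genes. Genes called higher, 506, became 283 at a mean of at least 5, 38 with the total of all genes, 1107 with that of nuclear genes, 940 in edgeR, 1106 with TMM, 1403 in DESeq2 and 296 to 1724 with 1 library left out. Genes called lower, 643, became 3026 without a filter, 399 at a mean of at least 5, 374 without trend, 1144 with the replicate block, 417 with quantiles, 6694 with the total of all genes, 183 with that of nuclear genes, 1216 in edgeR and 176 to 3198 with 1 library left out. The share of Acta1 in remaining tissue was 97.9% per kilobase. The cause of these changes was not tested. Depth limits Acta2 and Actg2 most, with 15 and 2 reads at most in a library of isolated mitochondria.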

Other observations

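Lists of other cells held few tested genes. The Schwann cell and adipocyte lists had 1 tested gene each, and 0 were called by limma, edgeR or DESeq2 in either list, nor was an unadjusted p under 0.05. The neuron list had 8 markers, of which 3 were among the 16472 genes and 2 were tested. Both tested genes were called higher in isolated mitochondria, as were 7.32% of all tested genes. Rbfox3 was at 0 and 0 against 471 and 648 normalized counts and Cntn1 at 1 and 1 against 805 and 288. Map2, which was not tested, had 6 and 4 against 9 and 30, the latter from 1 and 6 reads. Of the heart list, the calcium release channel Ryr2 was at 1 and 1 in remaining tissue and 36 and 162 in isolated mitochondria, from 4 and 32 reads (adjusted p 0.0533, limma).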
